A study of Mus musculus with 15 samples.

Results

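Cholesterol and fatty acid synthesis was followed through 32 genes, picked by symbol from the 49585 genes of the count table. All 32 were found, and all 32 were among the 15223 genes with enough counts to test. They are 18 sterol enzymes, 8 fatty acid enzymes and 6 genes for regulation and lipid handling. They do not cover every enzyme of either pathway. RNA was sequenced from E14 wild-type mouse embryonic stem cells, 3 libraries in each of 5 culture groups. Before the experiment, all cells had been kept on gelatin in the MEK inhibitor PD0325901 at 0.4 µM, the GSK3 inhibitor CHIR99021 at 3 µM and Lif at 4 ng/ml. All were then embedded at 2000 cells per µl in Matrigel low in growth factors, with N2B27 medium. The groups differ in what that medium held: 2iLif, FGF2/Activin, Aurka inh, PD032, or both of the last as PD032+ Aurka inh, which is named the combination below. The labels do not identify PD032 or the Aurora compound further, and give no dose and no length of culture for these groups. The column headers of the count table name the FGF2/Activin libraries FAK, letters that the labels do not spell out. No group had N2B27 medium without additions. The libraries of 2iLif and FGF2/Activin carry one style of name and those of the inhibitor groups another, so between these sets a difference of culture cannot be told apart from one of batch. Nothing in the labels says that libraries of a group came from separate cultures, so p-values here reflect the spread among libraries only, and that spread may be technical.

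As background, cells build cholesterol and fatty acids from the same precursor, acetyl-CoA. The sterol branch runs through mevalonate, farnesyl diphosphate and squalene to lanosterol, and then through a series of demethylation, isomerisation and reduction steps to cholesterol. The fatty acid branch makes malonyl-CoA and palmitate, which are then lengthened and desaturated. Both branches are transcribed under SREBP factors, membrane proteins that Scap carries to the Golgi for cutting when sterol is low and that Insig1 holds back in the endoplasmic reticulum when sterol is high. Srebf2 is known mainly for the sterol branch and Srebf1 for the fatty acid branch. At promoters, SREBP is known to act together with NF-Y, which binds CCAAT boxes, and with Sp1.

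The promoters of 4 members are printed because the results below turn on these genes: Hmgcs1 and Hsd17b7 moved with most sterol enzymes, Ebp moved against them, and Fasn stands for the fatty acid branch. Each stretch holds up to 250 bases before the RefSeq start of the gene, 5′ to 3′ on the gene's strand, in build GRCm38.p6. Capitals mark matches, on either strand, to CCAAT (read as ATTGG on the other strand) and to TCACNCCAC, a consensus of the sterol regulatory element. The stretch of Hmgcs1 is chr13:119690101-119690350 on the plus strand. That of Hsd17b7 is chr1:169969242-169969455 on the minus strand, shortened to 214 bases where an annotated transcript begins earlier. That of Ebp is chrX:8193513-8193762 and that of Fasn is chr11:120824548-120824797, both on the minus strand.
Hmgcs1: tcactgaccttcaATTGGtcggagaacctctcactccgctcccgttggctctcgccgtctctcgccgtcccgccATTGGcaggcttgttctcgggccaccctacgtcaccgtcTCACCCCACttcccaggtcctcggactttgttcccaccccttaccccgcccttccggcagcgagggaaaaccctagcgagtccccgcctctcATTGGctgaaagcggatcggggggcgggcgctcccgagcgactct
Hsd17b7: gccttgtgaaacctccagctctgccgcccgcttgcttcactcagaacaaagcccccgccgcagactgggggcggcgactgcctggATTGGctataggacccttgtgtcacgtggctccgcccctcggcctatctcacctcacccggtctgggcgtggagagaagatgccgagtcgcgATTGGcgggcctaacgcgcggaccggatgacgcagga
Ebp: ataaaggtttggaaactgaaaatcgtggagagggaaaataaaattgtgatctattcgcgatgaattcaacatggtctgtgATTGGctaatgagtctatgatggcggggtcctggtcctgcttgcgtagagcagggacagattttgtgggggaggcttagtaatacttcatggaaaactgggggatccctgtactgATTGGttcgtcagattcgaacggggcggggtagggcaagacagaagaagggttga
Fasn: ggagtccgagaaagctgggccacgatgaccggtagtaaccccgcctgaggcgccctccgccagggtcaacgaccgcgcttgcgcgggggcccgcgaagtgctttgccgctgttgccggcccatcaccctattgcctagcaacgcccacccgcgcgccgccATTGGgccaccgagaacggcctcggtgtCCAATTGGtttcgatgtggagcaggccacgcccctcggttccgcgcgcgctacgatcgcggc

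RefSeq promoter windows of 300 bases were matched for 25 of the 32 members, 15 of them sterol enzymes, 5 regulators and 5 fatty acid enzymes. CCAAT was present in the windows of 14 of the 15 sterol enzymes, or 93.3%, against 43.2% of 10980 tested genes with a window. Among fatty acid enzymes 2 of 5 had it, and among regulators 3 of 5. GGGCGG, the Sp1 box, was in the windows of 14 of 15 sterol enzymes and 2 of 5 fatty acid enzymes, against 68.2% of the tested genes. TCACNCCAC was found at 1 member, Hmgcs1, and at 1.49% of the tested genes. Within the printed stretches, Hmgcs1 holds 3 CCAAT matches, Hsd17b7 and Ebp 2 each, and Fasn 3, of which 2 overlap each other. A match is a string of letters and not a shown binding site. The promoter of Ebp carried the CCAAT string as did most other sterol enzymes with a window, although its level moved the opposite way in the results below.

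Depth ran from 15199507 to 24202544 counts per library. All 6 embryonic stem cell markers were present in every library, with a summed level of 3011 to 3191 CPM (counts per 1000000 counts of the library) in 2iLif and 1467 to 1901 CPM in PD032. Summed over 6 markers, the fibroblast list stayed between 2.47 and 20.6 CPM, and summed over 5 markers the neuroectoderm list reached 17.4 CPM in PD032 and 5.87 CPM elsewhere. The trophoblast list ran from 6.68 to 57.3 CPM, nearly all of it Tfap2c. Alb, Ttr, Plin1 and Fabp4, which mark the liver and fat cells best known for lipid synthesis, were at 0 in every library of all groups but PD032, where the 6 liver and fat markers together reached at most 0.257 CPM. Replicate 2 of each inhibitor group stood apart from its companions. It was the lowest of the 3 libraries for 7 of 8 fatty acid enzymes in PD032, for all 8 in Aurka inh and for all 8 in the combination, and for 10, 16 and 14 of the 18 sterol enzymes in the same groups. Results on the inhibitor groups are therefore also given without those 3 libraries.

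Levels per kilobase of exon spanned a wide range among both the fatty acid and the sterol enzymes. Averaged over the groups, Scd2 stood at 323 CPM per kb, Acly at 183, Hmgcs1 at 136, Scd1 at 93.5 and Fasn at 85 CPM per kb. The lowest were Acaca at 4.3 and Fdps at 4.52 CPM per kb. Scd2 and Scd1 desaturate stearoyl-CoA and are close paralogues, so the division of reads between them is uncertain. On the same strand Tm7sf2 overlaps Vps51, and Fdps, Acaca, Elovl6 and Srebf2 overlap genes with Gm names. Some members also overlap microRNA genes on that strand. On the opposite strand Cyp51, Fdft1 and Srebf1 overlap Akap9, Ctsb and Rai1, and some others overlap genes with Gm or Rik names. Whether an overlap lowered the counts of Acaca or Fdps was not tested. How the authors' counting handled strand is not given in the sources used here.

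The first comparison asks how the pathways differ between cells in FGF2 and Activin and cells in 2iLif. Most sterol enzymes were higher in FGF2/Activin: 14 of 18 rose, 2 fell and 2 did not pass. Of the 8 fatty acid enzymes 3 rose, 2 fell and 3 did not pass. Over all genes tested 33.3% rose and 32.6% fell at the same threshold, an adjusted p under 0.05 in edgeR's quasi-likelihood test. The median log2 fold change was 0.45 for sterol enzymes, 0.10 for fatty acid enzymes and -0.01 for all genes tested. The sterol and fatty acid counts were the same with each library left out in turn. In bulk RNA a change in the share of cells of one kind and a change in RNA per cell cannot be told apart.

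In the mevalonate steps 6 of 7 enzymes rose. Hmgcs1 (chr13:119690379-119708260 in mm10), which makes HMG-CoA, was at 478, 475 and 469 CPM in the 3 libraries of 2iLif and at 729, 749 and 748 CPM in FGF2/Activin. The groups lay far apart, with a log2 fold change of 0.65 ± 0.044 (SE, n = 3 and 3) and an edgeR adjusted p of 1.9e-09. Mvd, which makes isopentenyl diphosphate, went from 55.5, 56.7 and 60.2 CPM to 113, 111 and 107 CPM, a 1.92-fold rise. Idi1, the isomerase of that product, went from 18.6, 16.6 and 18.3 CPM to 28.8, 29.9 and 28.0 CPM. In both genes the groups did not overlap, as was so for 37.8% of all genes tested in this direction. Fdps, the farnesyl diphosphate synthase, stood at 14.8, 13.9 and 19.3 CPM in 2iLif and at 28.2, 26.5 and 25.4 CPM in FGF2/Activin. Pmvk and Acat2 rose by 0.40 and 0.33 on the log2 scale. Mvk, the mevalonate kinase, was the exception, with overlapping libraries at 53.1 to 54.7 CPM and 50.9 to 56.1 CPM (edgeR adjusted p = 0.75).

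All 3 enzymes from farnesyl diphosphate to lanosterol rose. Lss, which closes the sterol rings, had 125, 129.5 and 126 CPM in 2iLif and 248, 244 and 239 CPM in FGF2/Activin, a log2 fold change of 0.94 ± 0.14 (SE). Sqle, the squalene epoxidase, had 280.1, 277 and 284 CPM against 401, 402 and 391 CPM. Neither gene's libraries overlapped between the groups. Fdft1, the squalene synthase, rose by 0.48 ± 0.080 on the log2 scale.

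After lanosterol the steps parted: 5 of 8 enzymes rose, 2 fell and 1 did not pass. Hsd17b7, a sterol ketoreductase, rose most, from 22.9, 25.6 and 22.7 CPM to 45.7, 42.2 and 46.2 CPM. Dhcr7, the reductase of a closing step, rose from 77.5, 81.0 and 87.0 CPM to 112, 118 and 116 CPM. The rises of Cyp51, Msmo1 and Sc5d were smaller, at 0.39, 0.42 and 0.39 on the log2 scale. Ebp (chrX:8185329-8193512), the isomerase that moves a double bond within the sterol rings, fell from 60.3, 63.0 and 65.8 CPM in 2iLif to 13.2, 12.1 and 12.8 CPM. That is a 4.96-fold drop, with a log2 fold change of -2.31 ± 0.081 (SE, n = 3 and 3) and an edgeR adjusted p of 6.2e-13, the largest change among the 32 genes in this comparison. Tm7sf2, a sterol reductase, fell from 36.8, 34.8 and 38.8 CPM to 27.5, 29.4 and 28.4 CPM, a log2 fold change of -0.37 ± 0.081. Nsdhl, a sterol dehydrogenase, did not pass (log2 fold change -0.04, edgeR adjusted p = 0.58).

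**Figure D1:**
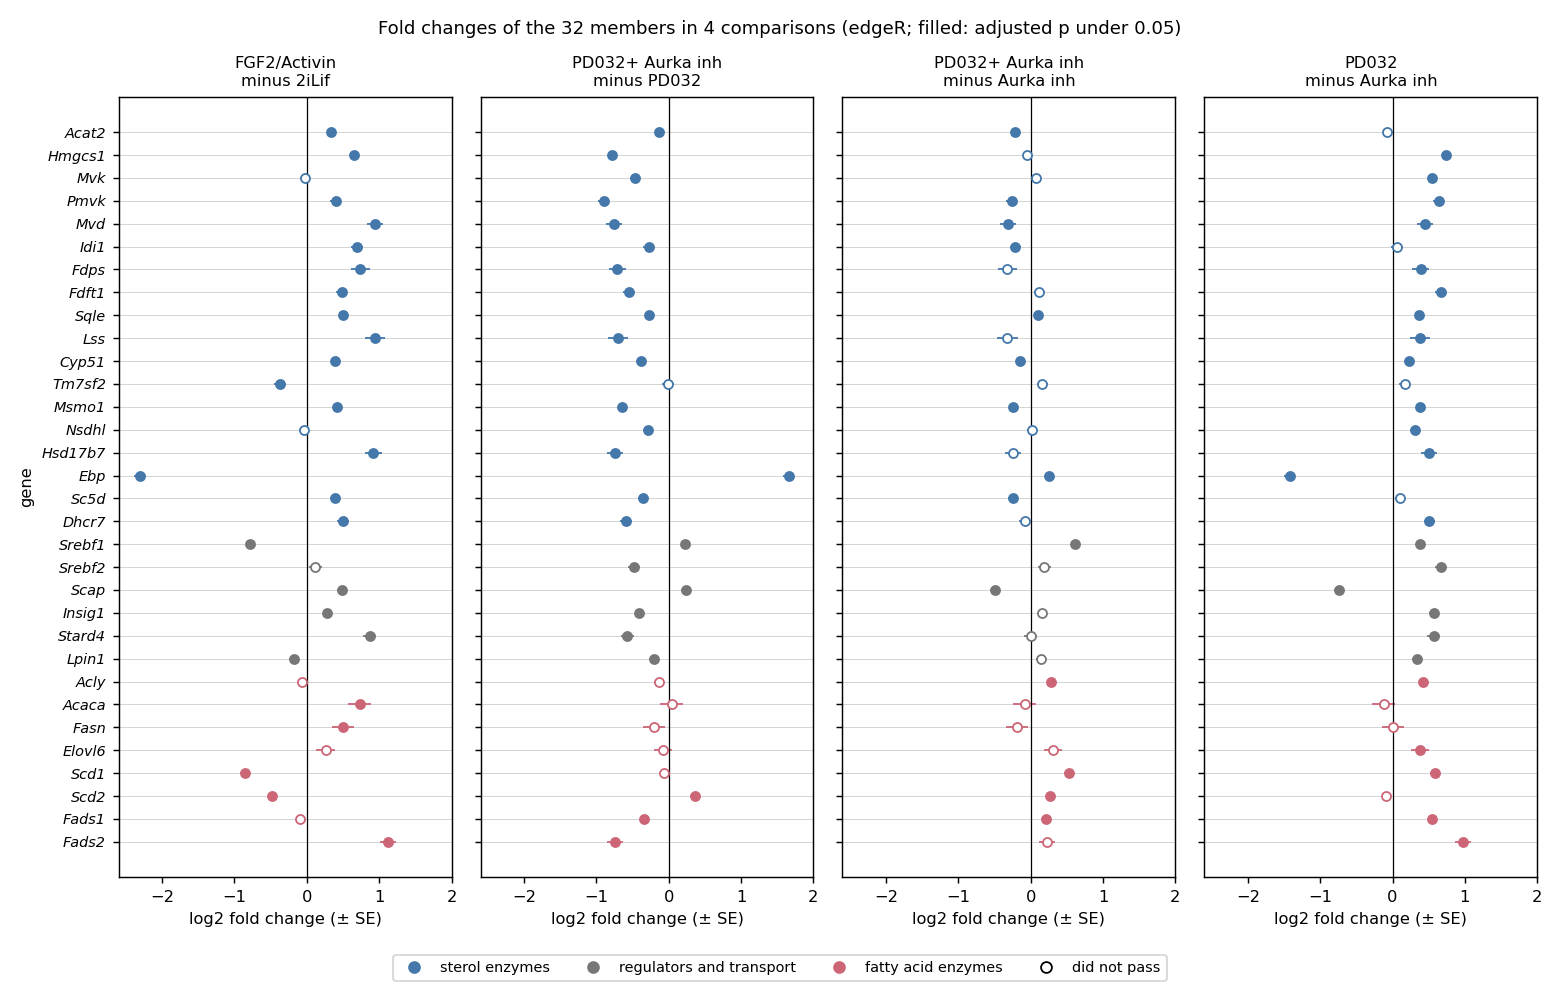
Log2 fold change (x axis, first-named group minus the other, bars are the standard error) of each of the 32 genes (y axis) in the 4 comparisons made within one naming style, 3 libraries a group, with filled points passing an adjusted p of 0.05. Blue sterol enzymes lie mostly right of 0 in FGF2/Activin and left of 0 in the combination against PD032, while Ebp, at -2.31 and 1.66, lies on the opposite side.

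The regulators did not move as one group in FGF2/Activin, with 3 higher, 2 lower and 1 not passing. Stard4, a cytosolic sterol carrier, rose from 125, 127 and 123 CPM to 225, 229 and 233 CPM. Scap, the SREBP escort, rose from 33.7, 34.9 and 31.6 CPM to 49.3, 48.1 and 43.5 CPM. Insig1 rose less, by 0.28 on the log2 scale. Srebf1 (chr11:60199089-60222581), the SREBP known for fatty acid genes, fell from 225, 239 and 238 CPM to 141, 137 and 130.1 CPM, with a log2 fold change of -0.78 ± 0.057 (SE). Lpin1, a phosphatidate phosphatase, fell by 0.17 on the log2 scale (edgeR adjusted p = 0.035), a call lost in DESeq2 (adjusted p = 0.054), with scaling by library size alone (edgeR, 0.12), and without replicate 1 of 2iLif or replicate 3 of FGF2/Activin (edgeR, 0.055 and 0.15). Srebf2, the SREBP known for sterol genes, had libraries at 406 to 423 CPM in 2iLif and 441 to 463 CPM in FGF2/Activin. These did not overlap, but the difference did not pass (log2 fold change 0.12 ± 0.086, edgeR adjusted p = 0.25). With only these groups and the replicate block in the fit, Srebf2 passed as higher (log2 0.12, edgeR adjusted p = 0.002).

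The fatty acid enzymes moved in both directions: Acaca, Fasn and Fads2 rose, and Scd1 and Scd2 fell. Acaca, which makes malonyl-CoA, rose from 66.7, 67.2 and 59.1 CPM to 105, 112 and 103 CPM. Fasn, the fatty acid synthase, rose from 896, 937 and 874 CPM to 1329, 1282 and 1207 CPM, a 1.41-fold rise. Fads2 (chr19:10062765-10101746), the first desaturase of polyunsaturated fatty acids, rose from 93.1, 86.8 and 86.7 CPM to 199.9, 196 and 185 CPM. Its log2 fold change of 1.12 ± 0.11 (SE, n = 3 and 3, edgeR adjusted p = 1.7e-07) was the highest of the 32 genes. Scd1 (chr19:44394455-44407879) fell from 539, 552 and 545 CPM to 299.7, 307 and 300.0 CPM. Its paralogue Scd2 fell from 1897, 1881 and 1859 CPM to 1370.5, 1354 and 1315 CPM. Both stearoyl-CoA desaturases were thus lower in all 3 libraries, by 0.85 ± 0.068 and 0.48 ± 0.062 on the log2 scale. Acly, Fads1 and Elovl6 did not pass, with log2 fold changes of -0.06, -0.09 and 0.26. Their libraries did not overlap between the groups, as was so for 37.8% of all genes tested in the higher direction alone. With only these groups and the replicate block in the fit, Elovl6 passed as higher and Fads1 as lower (edgeR adjusted p = 3e-08 and 0.025). That fit gave 4 fatty acid enzymes higher and 3 lower, although replicate numbers do not pair these libraries.

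The second comparison asks what adding the Aurora compound did to cells in PD032. Sterol enzymes were mostly lower in the combination: 16 of 18 fell, 1 rose and 1 did not pass, where 23.8% of all genes tested fell and 20.0% rose. The median log2 fold change of the sterol enzymes was -0.51 and that of all genes tested 0.01. Of the 8 fatty acid enzymes 2 fell, 1 rose and 5 did not pass. Without replicate 2 of the inhibitor groups 16 sterol enzymes fell and 1 rose as before, and 4 fatty acid enzymes fell.

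All 7 enzymes of the mevalonate steps fell. Hmgcs1 went from 882, 852 and 879 CPM in PD032 to 513, 487 and 515 CPM in the combination, with a log2 fold change of -0.79 ± 0.044 (SE, n = 3 and 3) and an edgeR adjusted p of 8.4e-10. Pmvk, the phosphomevalonate kinase, went from 66.7, 74.2 and 68.3 CPM to 35.9, 37.0 and 39.1 CPM, a 1.87-fold drop. Mvd went from 99.4, 83.1 and 98.0 CPM to 59.8, 47.7 and 58.8 CPM. None of these libraries overlapped between the groups, as was so for 26.1% of all genes tested in this direction. Fdps fell by 0.71 and Mvk by 0.47 on the log2 scale. Idi1 and Acat2 changed least, at -0.27 and -0.14, and both calls were lost without replicate 3 of PD032 (edgeR adjusted p = 0.055 and 0.054). The call of Idi1 was also lost without replicate 2 of the combination, and that of Acat2 without its replicate 1 (edgeR adjusted p = 0.051 and 0.093).

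Downstream, Fdft1 fell by 0.55, Sqle by 0.27 and Lss by 0.70 on the log2 scale. Hsd17b7 dropped from 47.4, 40.7 and 45.4 CPM to 30.2, 22.7 and 27.2 CPM. Msmo1, the methylsterol oxidase, dropped from 259, 270.2 and 263 CPM to 175, 162 and 173 CPM. Cyp51, the lanosterol demethylase, dropped from 217, 215 and 215 CPM to 168, 158 and 172 CPM. All 3 had the combination below PD032 in every library. Dhcr7, Sc5d and Nsdhl fell by 0.59, 0.36 and 0.29. Ebp went the other way, from 19.8, 20.6 and 20.1 CPM in PD032 to 64.0, 59.4 and 67.8 CPM in the combination. It rose 3.16-fold, or by 1.66 ± 0.074 (SE) on the log2 scale (adjusted p in edgeR = 6.3e-11), while Tm7sf2 was level at -0.01.

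Of the regulators 4 fell and 2 rose. Srebf2 fell from 585, 503 and 543 CPM to 428, 346 and 393 CPM, and Insig1 from 213, 197 and 207 CPM to 161, 145 and 158 CPM. Stard4 fell from 209, 189 and 209 CPM to 142, 124 and 141 CPM. In these genes replicate 2 was the lowest library of both groups, and the groups did not overlap. Lpin1 fell by 0.21 on the log2 scale, a call lost in 4 of the 6 fits that left out 1 library of either group. Srebf1 rose from 191, 171 and 186 CPM to 222, 206 and 211 CPM, and Scap by 0.24 on the log2 scale.

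Of the fatty acid enzymes Fads2 and Fads1 fell and Scd2 rose, and whether the 8 differed from the sterol enzymes as a group was not tested. Fads2 fell from 238, 203 and 234 CPM to 145, 116 and 143 CPM, a 1.67-fold drop, or -0.74 ± 0.11 (SE) in log2 terms (adjusted p in edgeR = 3.6e-05). Fads1, the next desaturase of polyunsaturated fatty acids, fell from 267, 271 and 266 CPM to 228, 197 and 211 CPM. Scd2 rose from 1786, 1543 and 1699 CPM to 2283, 2008 and 2153 CPM. Fasn, at 975, 697 and 925 CPM in PD032 and 863, 623 and 773 CPM in the combination, overlapped between the groups and did not pass (log2 fold change -0.20 ± 0.15). Within each replicate number, though, Fasn and Acly were lower in the combination, and with the replicate block both passed (edgeR adjusted p = 8e-05 and 0.00095), which raised the fatty acid enzymes that fell from 2 to 4. Acaca, Elovl6 and Scd1 did not pass, at 0.04, -0.08 and -0.06.

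**Figure D2:**
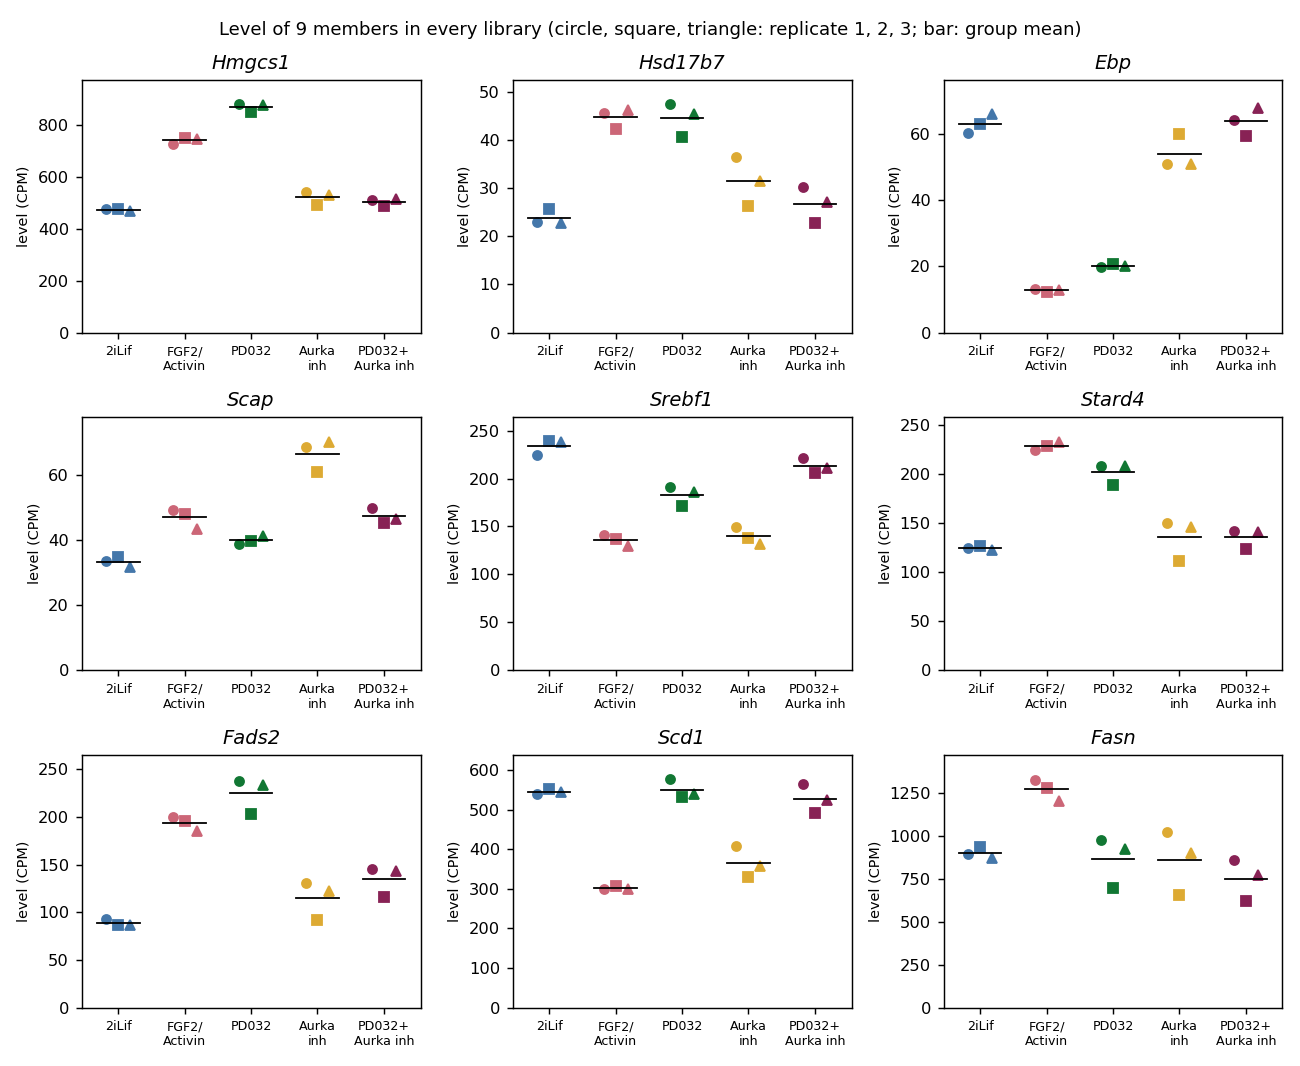
Level in CPM (y axis, from 0) of 9 genes in each of the 15 libraries by culture group (x axis), with a bar at the group mean and replicates 1, 2 and 3 as circle, square and triangle. Hmgcs1, Hsd17b7, Stard4 and Fads2 are high in FGF2/Activin and PD032, Ebp is low in those same groups, and the square lies lowest in each inhibitor group for Fasn.

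PD032 and Aurka inh, each alone, can be compared directly. In PD032 13 of 18 sterol enzymes were higher than in Aurka inh, 1 was lower and 4 did not pass, where 25.8% of all genes tested were higher and 19.7% lower. The fatty acid enzymes were also mostly higher here, 5 of 8, with none lower. The median log2 difference was 0.38 for the sterol enzymes, 0.40 for the fatty acid enzymes and 0.02 for all genes tested. Without replicate 2 of the inhibitor groups 14 sterol enzymes were higher and 1 lower, and 5 fatty acid enzymes higher and 1 lower, the last being Acaca.

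Hmgcs1 stood at 882, 852 and 879 CPM in PD032 and at 543, 492 and 531 CPM in Aurka inh, a log2 difference of 0.74 ± 0.044 (SE, n = 3 and 3, edgeR adjusted p = 1.6e-09). Fdft1 stood at 201, 242 and 200.5 CPM against 124, 148 and 134 CPM. Pmvk differed by 0.64 and Mvk by 0.55 on the log2 scale. Hmgcs1, Pmvk and Mvk showed the 3 largest differences in the mevalonate steps. All passed as higher in PD032, as did 25.8% of all genes tested. Fdps and Lss passed narrowly, at 0.39 and 0.38, and both calls were lost without replicate 2 of Aurka inh (edgeR adjusted p = 0.071 and 0.13) and without replicate 3 of PD032 (0.064 and 0.10), and that of Lss without replicate 1 of PD032 (0.11). Ebp was again opposite, at 19.8 to 20.6 CPM in PD032 and 50.8 to 60.0 CPM in Aurka inh, a log2 difference of -1.42 ± 0.074.

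Of the regulators 5 were higher in PD032 and 1 lower. Srebf2 was at 585, 503 and 543 CPM in PD032 and 392, 303 and 329 CPM in Aurka inh, a log2 difference of 0.67 ± 0.086. Insig1 and Stard4 both differed by 0.57, Srebf1 by 0.38 and Lpin1 by 0.34. Scap (chr9:110333288-110384950) was lower in PD032, at 38.9, 39.8 and 41.3 CPM against 68.6, 60.9 and 70.1 CPM in Aurka inh, a log2 difference of -0.74 ± 0.068. No other group reached the Scap level of Aurka inh.

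Of the fatty acid enzymes, Fads2 differed most, at 238, 203 and 234 CPM in PD032 against 130.3, 91.7 and 122 CPM in Aurka inh, a log2 difference of 0.97 ± 0.11. Scd1 stood at 577, 533 and 539.8 CPM against 408, 329.8 and 358 CPM. Fads1 was at 267, 271 and 266 CPM against 195, 171 and 184 CPM. Each passed as higher in PD032, as did 25.8% of all genes tested. Acly, which makes cytosolic acetyl-CoA from citrate, was at 1064, 985 and 1061 CPM against 830.4, 699.9 and 798 CPM. Elovl6, which lengthens palmitate, was at 265, 214 and 267 CPM against 222, 144 and 205 CPM. Its groups overlapped, and its call was lost without replicate 2 of Aurka inh or without replicate 1 or 3 of PD032 (edgeR adjusted p = 0.093, 0.081 and 0.087). Fasn was level, at 0.01 ± 0.15. Acaca and Scd2 did not pass as reported, but passed with the replicate block, as lower in PD032 (log2 -0.12 and -0.10, edgeR adjusted p = 0.049 and 0.0035). Acaca also passed as lower without replicate 2 of the inhibitor groups.

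The third inhibitor comparison sets the combination against Aurka inh alone, and so asks what PD032 added. Changes of the sterol enzymes were small: 2 of 18 were higher in the combination, 7 lower and 9 did not pass, where 18.6% of all genes tested were higher and 16.3% lower. The largest log2 differences were -0.32, for Fdps and Lss. Neither passed, but with the replicate block both did (log2 -0.34 and -0.33, edgeR adjusted p = 0.0038 and 1.8e-06), as did Hsd17b7 (log2 -0.25, edgeR adjusted p = 0.0017). Hmgcs1, at 513, 487 and 515 CPM in the combination and 543, 492 and 531 CPM in Aurka inh, did not pass (log2 -0.05 ± 0.044). The 7 that passed as lower were Mvd (-0.31), Pmvk (-0.26), Msmo1 (-0.25), Sc5d (-0.25), Acat2 (-0.21), Idi1 (-0.21) and Cyp51 (-0.15). Of these Mvd, Idi1 and Cyp51 had overlapping libraries. Ebp was 0.25 higher, with overlapping libraries, and Sqle 0.10 higher. These counts moved with the fit: with the replicate block 4 were higher and 11 lower, without replicate 2 of the inhibitor groups 1 was higher and 10 lower, and leaving out single libraries gave 0 to 2 higher and 3 to 10 lower. The libraries without which the number lower fell to 4 or fewer were replicates 1 and 3 of Aurka inh and replicate 2 of the combination.

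Of the 8 fatty acid enzymes 4 were higher in the combination, none was lower and 4 did not pass. Those that did not pass were Elovl6, Fads2, Acaca and Fasn, at 0.31, 0.23, -0.08 and -0.19 on the log2 scale. Scd1 was at 565, 491 and 524 CPM in the combination and at 408, 329.8 and 358 CPM in Aurka inh, a log2 difference of 0.53 ± 0.067 (SE, n = 3 and 3, edgeR adjusted p = 1.7e-05). Acly was at 989.8, 903 and 936 CPM against 830.4, 699.9 and 798 CPM. Scd2 and Fads1 were higher by 0.27 and 0.21. With the replicate block Elovl6 and Fads2 joined them (log2 0.30 and 0.22, edgeR adjusted p = 3.4e-05 and 0.00046) and Fasn was lower (log2 -0.20, adjusted p = 0.00015). Among the regulators Srebf1 rose, from 149, 138 and 132 CPM to 222, 206 and 211 CPM, and Scap fell, from 66.6 ± 4.93 to 47.3 ± 2.44 CPM (SD, n = 3 each). Both sets of libraries were clear of each other. The other 4 regulators did not pass, and of these Srebf2, Insig1 and Lpin1 passed as higher with the replicate block (edgeR adjusted p = 0.00042, 0.0049 and 0.041).

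Set against 2iLif, the inhibitor groups differ in naming style as well as in culture, and those differences cannot be told apart. These 3 comparisons share the 2iLif libraries with each other and with FGF2/Activin, so they are given side by side. In PD032 14 sterol enzymes were higher than in 2iLif and 1 lower, where 32.1% of all genes tested were higher and 30.9% lower. In Aurka inh 8 were higher and 5 lower, against 28.9% and 29.5%. In the combination 2 were higher and 3 lower, against 23.8% for each direction, and 13 did not pass. The fatty acid enzymes gave 3 higher and 1 lower in PD032, 1 higher and 3 lower in Aurka inh, and for the combination 3 higher and 1 lower. Without replicate 2 of the inhibitor groups the sterol counts were 14 and 1, 11 and 5, and 7 and 3, in the same order, and the fatty acid counts 3 and 1, 3 and 3, and 4 and 2. Scd2, the fatty acid enzyme lower in PD032, did not pass without replicate 2 or 3 of PD032, nor did Acly, the one lower in the combination, without replicate 2 or 3 of that group.

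In those comparisons Hmgcs1 was higher by 0.88 in PD032 and by 0.14 in Aurka inh on the log2 scale, and by 0.09 in the combination, the last not passing (edgeR adjusted p = 0.097). Pmvk was 0.50 lower in Aurka inh and 0.77 lower in the combination, and did not pass in PD032. Fads2 was higher in all 3, by 1.34, 0.37 and 0.60. In Aurka inh its libraries overlapped those of 2iLif, and the call was lost without replicate 1 of Aurka inh (log2 0.27, edgeR adjusted p = 0.057). Scap was also higher in all 3, by 0.26, 0.99 and 0.50. Acly was lower in Aurka inh and in the combination, by 0.46 and 0.18, and did not pass in PD032. Ebp was 1.65 lower in PD032 and 0.23 lower in Aurka inh, and at 64.0, 59.4 and 67.8 CPM in the combination it overlapped the 60.3 to 65.8 CPM of 2iLif.

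Ordered by group mean, PD032 held the highest level of 16 of the 32 genes and the lowest of 1. FGF2/Activin held the highest of 10, and 2iLif the lowest of 12. This ranking was not made over all genes tested, so the counts cannot be read as particular to these pathways. It also crosses the naming styles, so culture and batch cannot be told apart in it. Hmgcs1 ran from PD032 (871 ± 16.3 CPM, SD, n = 3) through FGF2/Activin (742 ± 11.3 CPM), Aurka inh (522 ± 26.8 CPM) and the combination (505 ± 15.5 CPM) to 2iLif (474 ± 4.75 CPM). Only the libraries of Aurka inh and the combination overlapped among neighbours in that order. Ebp ran from the combination (63.7 ± 4.21 CPM) and 2iLif (63.0 ± 2.73 CPM), which overlapped, through Aurka inh (53.8 ± 5.31 CPM) and PD032 (20.2 ± 0.419 CPM) to FGF2/Activin (12.7 ± 0.559 CPM). Its highest mean was 5.01 times its lowest, the widest span of the 32 genes. Scd1 was highest in PD032 (549.9 ± 23.3 CPM), 2iLif and the combination, whose libraries overlapped, then Aurka inh (365 ± 39.8 CPM) and last FGF2/Activin (302 ± 4.13 CPM). Fads2 was highest in PD032 (225 ± 19.4 CPM) and FGF2/Activin (194 ± 7.83 CPM) and lowest in 2iLif (88.9 ± 3.70 CPM), where it overlapped Aurka inh (115 ± 20.3 CPM).

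Sterol and fatty acid enzymes were then set beside each other within each library, as the mean log2 CPM over 18 and over 8 genes. The sterol mean was 6.19 ± 0.08 in the combination (SD, n = 3), 6.21 ± 0.04 in 2iLif, 6.29 ± 0.10 in Aurka inh, 6.52 ± 0.01 in FGF2/Activin and 6.57 ± 0.03 in PD032. The fatty acid mean was 8.32 ± 0.22 in Aurka inh, 8.42 ± 0.02 in 2iLif, 8.52 ± 0.16 in the combination, 8.57 ± 0.03 in FGF2/Activin and 8.67 ± 0.13 in PD032. The sterol means of FGF2/Activin and PD032 were thus above all libraries of the other groups, while the fatty acid means of the inhibitor groups were spread by replicate 2. Sterol minus fatty acid was -2.21 ± 0.07 in 2iLif, -2.05 ± 0.02 in FGF2/Activin, -2.03 ± 0.14 in Aurka inh, -2.10 ± 0.10 in PD032 and -2.33 ± 0.09 in the combination. These are descriptions over a chosen list, with no test. The value for FGF2/Activin depends on how the genes are summed: relative to 2iLif it was 0.17 higher, but 0.03 higher without Scd1, 0.08 higher without Scd2, and 1.06 higher with the median in place of the mean.

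**Figure D3:**
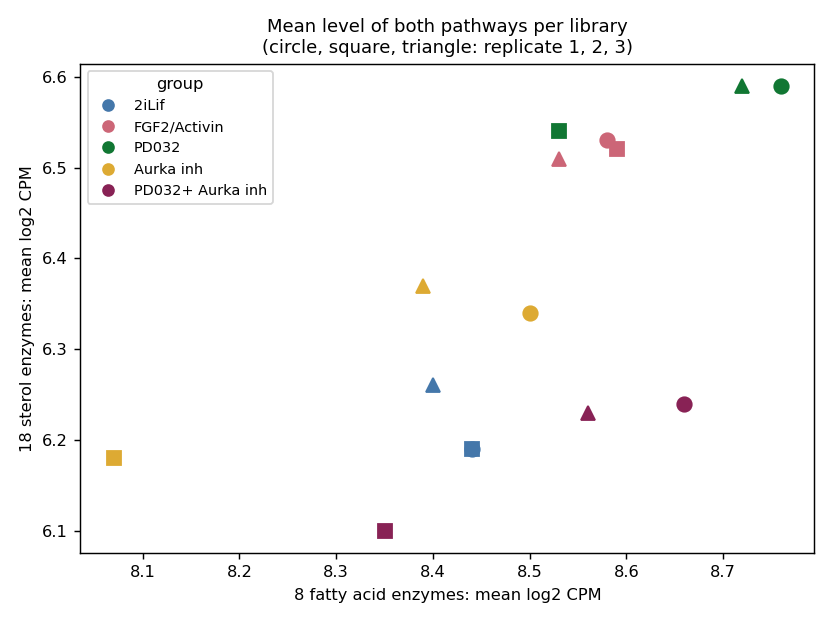
Mean log2 CPM of the 18 sterol enzymes (y axis) against that of the 8 fatty acid enzymes (x axis), 1 point per library, coloured by culture group, with replicates 1, 2 and 3 as circle, square and triangle. The 6 libraries of FGF2/Activin and PD032 lie highest on the sterol axis, from 6.51 to 6.59, and the square is leftmost in each inhibitor group.

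Comparisons that share no library can be set against each other gene by gene. All 14 sterol enzymes that rose in FGF2/Activin against 2iLif fell in the combination against PD032, which is every gene of the first set and 87.5% of the 16 that fell. As 16 of all 18 sterol enzymes fell there, most of any 14 had to be in this overlap. Over all genes tested the same overlap was 49.4% of the genes that rose and 69.1% of those that fell. For the fatty acid enzymes it was 1 gene, Fads2, of 3 and of 2. With PD032 against Aurka inh, 11 of the 14 risen sterol enzymes were also higher in PD032, 78.6% of the first set and 84.6% of the second, against 31.9% and 41.1% of all genes. Here 13 of all 18 were higher in PD032, so a large overlap again follows from the list totals. Neither overlap therefore shows agreement gene by gene within the list. Ebp fell in FGF2/Activin, rose in the combination against PD032 and was lower in PD032 than in Aurka inh, each time opposite to most sterol enzymes.

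Genes next to these pathways were listed as well by role, though with earlier results of these data known. In FGF2/Activin against 2iLif, 5 of 7 genes of the LXR and sterol export list fell, none rose and 2 did not pass, where 32.6% of all genes tested fell and 33.3% rose. Abca1, which exports cholesterol from the cell, went from 66.0, 77.7 and 57.4 CPM to 2.29, 3.51 and 2.87 CPM, a 23.1-fold drop with an edgeR adjusted p of 1e-11. Mylip, which marks lipoprotein receptors for breakdown, and Lpcat3, a phospholipid acyltransferase, fell by 1.78 and 1.63 on the log2 scale. Of 12 genes for SREBP processing and sterol trafficking 2 rose and 7 fell. Soat1, which esterifies cholesterol, rose from 14.8, 15.8 and 17.3 CPM to 113, 116 and 109 CPM, and Npc2, a lysosomal sterol carrier, fell by 1.37. In the isoprenoid branch 5 of 7 fell, with Fntb, a farnesyltransferase subunit, at -1.20.

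The same lists in the combination against PD032 gave 1 higher and 3 lower of 7 for LXR and sterol export, 4 and 2 of 12 for SREBP processing and trafficking, and 4 and 0 of 7 for the isoprenoid branch, beside 20.0% higher and 23.8% lower of all genes tested. Soat1 fell there by 1.20 ± 0.18 on the log2 scale, from 84.7, 51.9 and 79.2 CPM to 35.4, 24.2 and 34.3 CPM, while Abca1 did not pass (log2 -0.32, edgeR adjusted p = 0.10). In PD032 against Aurka inh, 5 of the 7 genes of the LXR list were higher and none lower, beside 25.8% and 19.7% of all genes tested. Abca1 stood at 26.7, 21.5 and 25.5 CPM in PD032 and at 5.00, 6.17 and 3.02 CPM in Aurka inh. No library of one group reached the other.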

How the data were processed

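The authors deposited a table of whole-number read counts per gene for the 15 libraries, used for all fits here, and a table of log2 normalized values, used only for an alternative test with limma 3.58.1. Per the submitters' processing notes, STAR, mm10 and DESeq2 were used. The sources used here give neither their versions nor how reads were counted and whether by strand. Per the labels' protocols, libraries were poly(A) selected and directional. Symbols, positions and exon lengths came from GENCODE M21, matched by gene identifier, and promoters from RefSeq (GRCm38.p6).

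Counts were filtered with filterByExpr, scaled by TMM and fitted over all 15 libraries with a term per group (edgeR 4.0.16 in R 4.3.3, quasi-likelihood, 7 comparisons). The threshold was an adjusted p of 0.05 (Benjamini-Hochberg, over the 15223 genes tested in a comparison). CPM are counts over TMM-scaled totals. On the log2 scale, CPM had a prior count of 2. Per kb means per kilobase of merged exons. Counts per library, from 15199507 to 24202544, limit the precision of low genes. The fits were tested on simulated data. Of 1.5-fold changes they recovered from 56.7% (Aurka inh against 2iLif) to 74.6% (FGF2/Activin against 2iLif). A gene that did not pass may therefore still differ. The genes, lists and tests were chosen with earlier results of these data known. Every member could be named. Values per library are given for up to 3 members of each list with the largest change in a comparison, and for a set of 20 members in at least 1 comparison.

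Among the inhibitor groups, libraries with equal replicate numbers deviated together from their group means (r from 0.396 to 0.756 across 8944 genes, which are not independent), so a fit with the replicate number as a block is given beside results it changes. Between FGF2/Activin and 2iLif they did not (r from -0.0494 to 0.0386), nor throughout across naming styles (-0.195 to 0.21). No pair of libraries of a group matched within sampling noise, but the excess was uneven. Chi-square per degree of freedom was 1.24 to 1.57 in FGF2/Activin and 1.34 to 6.95 in 2iLif. In the inhibitor groups it ran from 2.59 to 19.2. Each SE rests on the spread shared over all 15 libraries, not on the compared groups alone. Alternatives were DESeq2 1.42.0, library size alone, no filter, only the groups compared in the fit, limma, the block, each library left out, and, added after seeing the data, leaving out replicate 2 of the inhibitor groups.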

Additional observations from a re-analysis of the deposited data

How the results depend on the processing

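The counts of sterol enzymes in FGF2/Activin against 2iLif (14 higher, 2 lower) and in the combination against PD032 (16 lower, 1 higher) kept within 1.5 times under every setting run, as did those of sterol enzymes in PD032 against 2iLif and against Aurka inh. Of 224 pairs of a gene and a comparison 148 passed as reported, and 0 of these changed sign in any setting. The values below are those that moved or changed sign, and the cause was not tested. No scaling moved the median of all genes by over 0.1 on the log2 scale.

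With library size alone, fatty acid enzymes lower than in 2iLif went from 1 to 0 in PD032 and from 1 to 0 in the combination, and sterol enzymes higher went from 2 to 4 in the combination against 2iLif and from 2 to 1 in the combination against Aurka inh. With no filter on low counts, fatty acid enzymes against 2iLif gave 2 higher in Aurka inh and 2 lower in the combination, and the combination against Aurka inh gave 1 fatty acid enzyme lower and 1 sterol enzyme higher. With only the groups compared in the fit, Aurka inh against 2iLif gave 3 sterol enzymes lower instead of 5, PD032 against 2iLif 0 fatty acid enzymes lower, and the combination against 2iLif 4 sterol enzymes higher. The same setting for the combination against Aurka inh gave 0 sterol enzymes higher, 3 lower and 1788 genes higher in all instead of 2837. In limma on the deposited log2 values that comparison had 1 sterol enzyme higher, and Acaca in the combination against 2iLif was at -0.01 instead of 0.01.

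With the replicate block, Aurka inh against 2iLif gave 3 sterol enzymes lower, PD032 against 2iLif 0 fatty acid enzymes lower and the combination against 2iLif 2, although numbers do not pair these libraries. Among the inhibitor groups, libraries with equal replicate numbers deviated together, though no label says that they are paired. There the block gave 2 fatty acid enzymes lower in PD032 than in Aurka inh and 4 lower in the combination than in PD032. For the combination against Aurka inh the block gave 1 fatty acid enzyme lower, with 4 sterol enzymes higher and 11 lower. It changed no other count there by over 1.5 times.

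Without replicate 2 of the inhibitor groups, fatty acid enzymes higher in Aurka inh than in 2iLif numbered 3, those lower in PD032 than in Aurka inh 1, and those lower in the combination 2 against 2iLif, 1 against Aurka inh and 4 against PD032. Sterol enzymes higher in the combination then numbered 7 against 2iLif and 1 against Aurka inh. Leaving out single libraries gave, for Aurka inh against 2iLif, 0 to 2 fatty acid enzymes higher, 3 to 5 sterol enzymes lower and log2 values of Acaca from -0.05 to 0.27. For PD032 against 2iLif it gave 0 to 1 fatty acid enzymes lower, and for PD032 against Aurka inh Acaca from -0.31 to 0.02. For the combination against 2iLif it gave 0 to 1 fatty acid enzymes lower, 1 to 4 sterol enzymes higher, Acaca from -0.09 to 0.14 and Dhcr7 from -0.03 to 0.14. For the combination against Aurka inh it gave 0 to 1 fatty acid enzymes lower, 0 to 2 sterol enzymes higher and 3 to 10 lower. Sterol minus fatty acid in FGF2/Activin, relative to 2iLif, was 1.06 with the median in place of the mean, 0.03 without Scd1 and 0.08 without Scd2, against 0.17 as reported. Depth limits the precision most for the genes with fewest counts, such as Fdps and Idi1.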

Other observations

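Lists next to the fatty acid branch also differed in FGF2/Activin against 2iLif (edgeR, adjusted p under 0.05, where 33.3% of all genes tested rose and 32.6% fell). Of 7 genes for the supply of acetyl-CoA, citrate and NADPH, 2 rose and 5 fell. Acss2, which makes acetyl-CoA from acetate, went from 18.6, 18.6 and 19.7 CPM to 8.06, 6.89 and 7.35 CPM, while Mlxipl, the carbohydrate response factor ChREBP, stayed low but rose from 0.715, 0.744 and 1.11 CPM to 4.33, 4.59 and 4.41 CPM. Of 14 genes for elongation and glycerolipid synthesis 7 rose and 4 fell. The elongase Elovl7 fell by 3.08 on the log2 scale, and Acsl4, an acyl-CoA synthetase for polyunsaturated fatty acids, rose by 2.06.

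Of 11 tested genes for fatty acid oxidation 2 rose and 7 fell in the same comparison. Cpt1a, which admits fatty acids to mitochondria, went from 122, 123 and 124 CPM to 33.3, 32.4 and 32.7 CPM. In the combination against PD032 Cpt1a rose from 22.1, 19.4 and 21.7 CPM to 79.5, 82.4 and 74.9 CPM, a log2 fold change of 1.90 ± 0.076 (SE, n = 3 and 3, edgeR adjusted p = 2.3e-11). There 4 of the 11 genes of the list rose and 1 fell, beside 20.0% higher and 23.8% lower of all genes tested. For Cpt1a itself the groups did not overlap in either comparison.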
